A study of Mus musculus with 31 samples.

Results

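Glycolysis turns glucose into pyruvate, and the hypoxia response raises many of its genes when oxygen is short. The genes described here are 43 members of these pathways, listed by name, out of 20314 genes in the table. They fall by role into 4 genes of glucose entry and its first step, 13 glycolytic enzymes, 7 genes of lactate handling and flux control, 6 genes of the hypoxia-inducible factors (HIF) and their oxygen sensing, and 13 other genes known to respond to hypoxia. All 43 were found in the table, and 43 of 43 passed the filter on low counts in every test but 1, in which 42 passed and Eno2 did not.

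RNA-seq was run on 31 mouse libraries in a study of expandable hemangioblasts (eHBs), cultured progenitor lines able to form blood cells and vessel-lining (endothelial) cells. The 5 eHB lines grew with 2 µg/mL doxycycline at passages 5 to 7 and were not sorted. By origin, RB3.6.5 and RB4.6.9 are ES (embryonic stem) cell lines turned into eHBs, M5 arose from fibroblasts of an embryo, and both FL lines (FL4, FL10) arose from the liver of a fetus. The RB lines had VEGF, 8-bromo-cAMP, the TGF-beta receptor inhibitor SB431542, BMP4 and FGF2 in their medium, whereas M5, FL4 and FL10 had FGF2 as the only factor.

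Each eHB line was also grown for 3 days without doxycycline in the medium of the RB lines and taken unsorted (endothelial cultures, n = 5). Blood cultures of each line held CHIR99021 (an activator of Wnt signalling, 3 µM), SCF, IL-3 and Flt3L and were kept at 1.5% oxygen. They were sorted on day 2 for VE-cadherin without CD45 (n = 5) and on day 3 for VE-cadherin with CD45 (n = 5). ES lines RB2, RB3 and RB4 (n = 3, passage 9, CHIR99021 at 3 µM with PD0325901 and LIF) and the Kdr-positive mesoderm grown from them in 4 days with Activin A, CHIR99021 at 3 µM, BMP4 and FGF2 (n = 3) were the early stages. The uncultured sources were sorted from embryos. Yolk sac and embryo endothelium came from E11.5 by VE-cadherin with Pecam1 (n = 2 each), and hematopoietic stem cells (HSCs) came from E14.5 by CD45, CD201 and CD150 without CD48 (n = 1). The labels used here give the oxygen level of the blood cultures alone. The tables list ectopic transcripts of transcription factors such as Tal1, at 1295 to 4233 TPM in eHB lines, 10.9 to 140 TPM in endothelial cultures, 1.49 to 127 TPM in day 2 blood and 4.46 to 72.9 TPM in day 3 blood. Stage, doxycycline and these factors differ together between eHB lines and their progeny and cannot be told apart. The medium differs with them as well, except between the RB eHB lines and their endothelial cultures. Blood cells were also sorted, unlike eHB lines and endothelial cultures, whose oxygen level is not given. Between blood and these unsorted groups, cell type, medium, sorting and any difference in oxygen therefore cannot be told apart. Among eHB lines, origin and medium cannot be told apart.

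Glucose enters cells through transporters, is phosphorylated by hexokinases and is split and oxidised to pyruvate, which lactate dehydrogenase can turn into lactate for export. In normal oxygen, prolyl hydroxylases mark the HIF alpha subunits, and the ubiquitin ligase component Vhl recognises the mark, so the subunits are destroyed. In low oxygen they persist, pair with Arnt and bind a short DNA motif with the core ACGTG or GCGTG near target genes, many of which encode glycolytic enzymes. Endothelial cells and blood progenitors are both known to rely on glycolysis, and Epas1, one of the alpha subunits, is known for its high expression in endothelium.

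The promoters of 5 genes with large differences between blood and endothelial cultures are shown so that matches to the HIF core motif can be read in them. The 150 bases just before the first RefSeq transcript start listed for each gene were taken on GRCm38.p6. They are read 5′ to 3′ on the gene's strand, with ACGTG or GCGTG and their reverse complements CACGT and CACGC in capitals. The stretches belong to the hexokinase Hk2, the phosphofructokinase Pfkl, the aldolase Aldoc, the lactate exporter Slc16a3 and the mitochondrial protein Bnip3. GENCODE places some starts elsewhere. The stretches of Pfkl and Slc16a3 lie inside the GENCODE gene spans given below, and those of Aldoc and Bnip3 partly so.

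Hk2 chr6:82774455-82774604 (minus strand): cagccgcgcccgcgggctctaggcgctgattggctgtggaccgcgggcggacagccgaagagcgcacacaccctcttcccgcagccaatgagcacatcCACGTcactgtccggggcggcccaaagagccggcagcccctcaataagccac

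Pfkl chr10:78009808-78009957 (minus strand): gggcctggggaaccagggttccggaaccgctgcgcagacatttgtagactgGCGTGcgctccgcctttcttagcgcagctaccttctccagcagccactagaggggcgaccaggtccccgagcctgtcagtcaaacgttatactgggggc

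Aldoc chr11:78322923-78323072 (plus strand): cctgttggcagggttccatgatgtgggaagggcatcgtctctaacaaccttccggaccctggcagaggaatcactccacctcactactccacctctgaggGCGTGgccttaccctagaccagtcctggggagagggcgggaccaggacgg

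Slc16a3 chr11:120948917-120949066 (plus strand): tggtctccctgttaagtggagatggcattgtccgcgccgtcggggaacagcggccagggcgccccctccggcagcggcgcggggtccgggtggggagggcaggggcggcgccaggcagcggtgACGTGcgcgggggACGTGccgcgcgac

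Bnip3 chr7:138909507-138909656 (minus strand): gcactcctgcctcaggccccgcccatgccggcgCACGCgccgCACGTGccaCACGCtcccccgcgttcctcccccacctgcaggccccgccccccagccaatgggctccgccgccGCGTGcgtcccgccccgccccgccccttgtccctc

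Windows from 250 bases before to 50 bases after the start were found for 39 of the 43 members, and Slc2a3, Epas1, Bnip3l and Ndrg1 had none in the table. For a gene with several windows, only the first listed was used. Counting matches on both strands and merging overlapping ones, 30 of the 39 windows (76.9%) held at least 1 match and 22 (56.4%) at least 2. Among the windows of all 27025 genes the shares were 43.8% and 17.4%, and among 8082 genes with a mean of at least 5 TPM they were 65.4% and 32.3%. At least 1 match was present in 7 of 7 genes of lactate handling and flux control, 8 of 13 glycolytic enzymes, 2 of 3 genes of glucose entry, 4 of 5 HIF and oxygen-sensing genes and 9 of 11 other hypoxia-responsive genes. Bnip3 had 4 matches in its window, Aldoc 3, Slc16a3 and Hk2 2 each, and Pfkl 1. A match is a description of these letters, not a binding site or a cause.

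Levels are given in TPM as deposited, a unit in which transcript length is divided out and each library sums to 1000000, so that genes can be compared. The 5 values of a group of eHB lines or of their progeny follow the order RB3.6.5, RB4.6.9, M5, FL4 and FL10. Each fold change is a log2 difference from edgeR's quasi-likelihood test on the expected counts, with p adjusted by Benjamini-Hochberg over all genes tested in that comparison and 0.05 as the threshold. "Rose" and "fell" are used of genes past it. Overlap between groups was read from TPM, which keep shifts of composition that edgeR's scaling takes out. It is given mostly for genes named for their large change. It was not counted over all genes, so it describes the named genes only. Replicates are lines, or samples that the labels do not tie to separate animals, so p-values measure the spread between them. RSEM divides reads among similar transcripts, so Gapdh, Ldha, Eno1, Aldoa, Tpi1, Pgk1, Pgam1 and Pkm, which have near-identical processed copies in the genome, carry that uncertainty.

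Library totals ran from 9424412 expected counts in day 3 blood of RB3.6.5 to 79497758 in HSCs. In cultured progeny, 7 endothelial markers summed to 6766 to 8615 TPM in endothelial cultures, against 360 to 776 TPM in eHB lines. The 5 leukocyte markers summed to 2507 to 3187 TPM in day 3 blood. Markers of types other than the label were present too. Leukocyte markers summed to 250 to 294 TPM in ES cells and endothelial markers to 1118 TPM in HSCs. The ES sum was nearly all Laptm5, at 247 to 290 TPM, with each of the other leukocyte markers at 2.53 TPM or less. Yolk sac endothelium had fibroblast sums of 1068 to 1132 TPM and macrophage sums of 177 to 339 TPM. Embryo endothelium had erythroid sums of 2721 to 34079 TPM. Day 3 blood of RB3.6.5 stood apart, with 10.3% of its counts in Lars2 (0.0213% to 0.347% in the other libraries) and an erythroid marker sum of 18280 TPM, above the 1037 to 2906 TPM of the other day 3 libraries. Day 2 blood of M5 and FL4 had erythroid sums of 69474 and 61545 TPM against 3560 to 6446 TPM in the other 3. In bulk RNA, fewer cells of a type and less RNA per cell cannot be told apart.

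**Figure D1:**
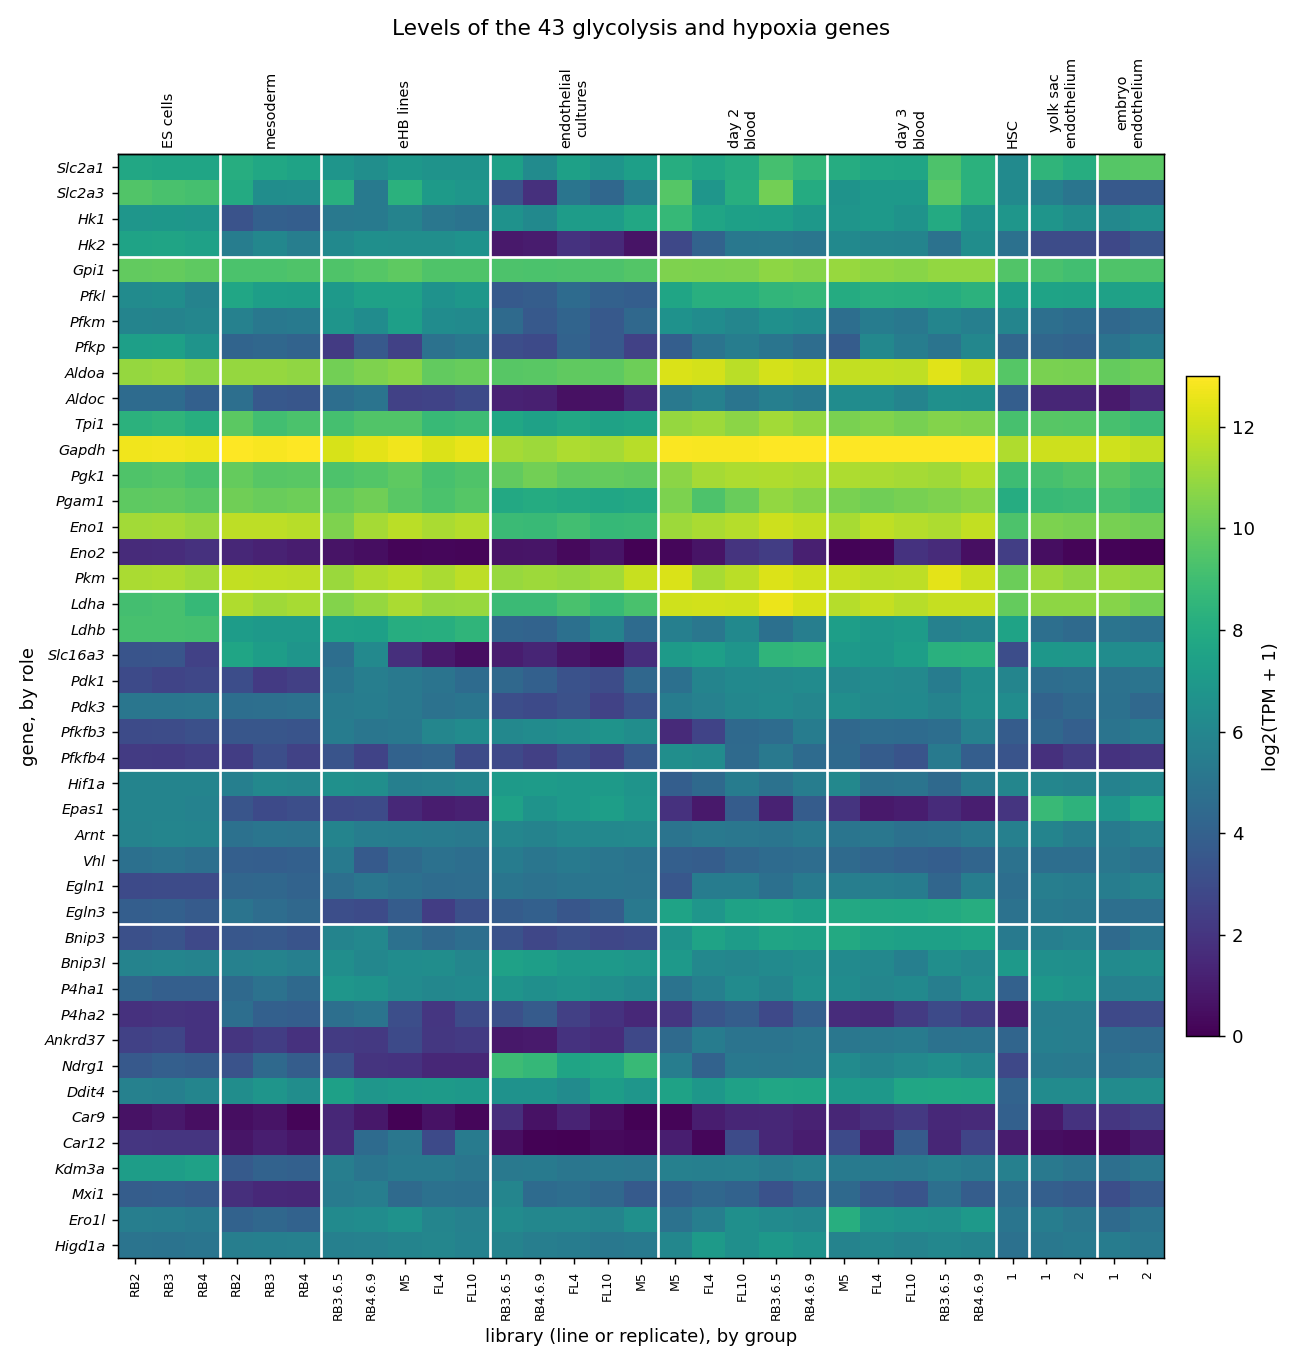
Level of the 43 genes in the 31 libraries as log2(TPM + 1), with genes in rows by role and libraries in columns by group. The summed level of the 13 glycolytic enzymes was 24127 to 33743 TPM in the day 2 and day 3 blood columns and 7808 to 10539 TPM in the endothelial culture columns, but by group mean Pfkp was highest in ES cells, Pfkm in eHB lines, Eno1 in mesoderm and Eno2 in HSCs.

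Blood cultures of day 2 stood far above endothelial cultures of the same 5 lines across glycolysis. Of 13 glycolytic enzymes 13 rose, as did 4 of 4 genes of glucose entry and 6 of 7 of lactate handling and flux control. The HIF genes went the other way, with 1 of 6 higher and 4 lower, and 6 of 13 other hypoxia-responsive genes rose while 1 fell. In all, 30 of 43 genes rose and 6 fell, against 32.9% and 31.6% of 12482 genes tested. At a change of at least 2-fold, 29 genes were higher and 4 lower, against 22.3% and 22.8% of all genes. The median log2 fold change was 1.88 over the 43 genes and 0.04 over all genes. Cell type, medium, day, sorting and any difference in oxygen cannot be told apart in this comparison.

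Among the genes of glucose entry, Slc2a3, a glucose transporter of high affinity (minus strand of chromosome 6, 122727809 to 122801640, GENCODE M21 on GRCm38), was at 1199, 256, 771, 112 and 287 TPM in day 2 blood. In endothelial cultures it was at 8.23, 2.52, 48.8, 32.6 and 19.5 TPM. The groups did not overlap, and the log2 fold change was 5.16 ± 0.98 (SE, adjusted p = 0.00108). Hk2, the inducible hexokinase (chromosome 6, 82725025 to 82774454, minus strand), was at 37.1, 33.9, 6.06, 16.5 and 36.1 TPM in blood and 0.86, 0.99, 0.596, 2.68 and 1.9 TPM in endothelial cultures. Every blood library lay above every endothelial one, with M5 the lowest in blood, and the difference was 4.66 ± 0.55 (SE, adjusted p = 7.11e-05). Slc2a1, the other main transporter, rose by 1.88 ± 0.32 (SE, adjusted p = 0.000528) and Hk1, the housekeeping hexokinase, by 1.3 ± 0.48 (SE, adjusted p = 0.0355). For Hk1 the call did not hold without day 2 blood of M5 (0.76, adjusted p = 0.0761), where its level was 418 TPM against 122 to 197 TPM in the other day 2 libraries.

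The step that commits sugar to glycolysis is catalysed by phosphofructokinase. Its subunit gene Pfkl (chromosome 10, 77986947 to 78010083, minus strand) was at 381, 398, 196, 292 and 297 TPM in day 2 blood and 11.9, 13.2, 13.8, 22.4 and 15.3 TPM in endothelial cultures. These ranges lay far apart, with a log2 fold change of 4.87 ± 0.23 (SE, adjusted p = 2.39e-06). Aldoc, an aldolase that splits the sugar into triose phosphates (chromosome 11, 78322968 to 78327781, plus strand), was at 48.4, 40, 37.1, 50.8 and 32.3 TPM in blood. In endothelial cultures it was at 1.35, 1.21, 1.61, 0.477 and 0.572 TPM, so that the gene was near absent there, and it differed by 5.89 ± 0.41 (SE, adjusted p = 6.62e-06). Gapdh, which oxidises the triose, had 8294 ± 1298 TPM in blood and 2576 ± 325 TPM in endothelial cultures (SD, n = 5 each), a difference of 2.25 ± 0.18 (SE, adjusted p = 1.1e-05). Tpi1, the triose isomerase, and Eno1, the main enolase, differed by 3.95 ± 0.21 (SE, adjusted p = 2.95e-06) and 3.29 ± 0.16 (SE, adjusted p = 2.62e-06). Eno2, the neuronal enolase, was near the detection limit at 0.183 to 4.12 TPM in blood and 0.042 to 0.686 TPM in endothelial cultures, and its call (2.43 ± 0.85 SE, adjusted p = 0.0287) was lost without day 2 blood of FL10 or RB3.6.5 (2.26 and 1.84, adjusted p = 0.0562 and 0.0814) or endothelial FL4 (2.28, adjusted p = 0.0654).

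Slc16a3, which exports lactate (chromosome 11, 120948480 to 120960868, plus strand), had the largest rise of the 43 genes. It was at 363, 390.4, 136, 162 and 110.3 TPM in day 2 blood and 1.07, 1.51, 2.19, 0.694 and 0.343 TPM in endothelial cultures. The lowest blood library was still above 100 TPM and the highest endothelial one near 2 TPM, and the log2 fold change was 7.93 ± 0.6 (SE, adjusted p = 9.62e-06). Ldha, which makes lactate from pyruvate, was at 4795 ± 835 TPM in blood and 522 ± 85.6 TPM in endothelial cultures, a difference of 3.76 ± 0.21 (SE, adjusted p = 3.16e-06). The pyruvate dehydrogenase kinases Pdk1 and Pdk3, which restrain the oxidation of pyruvate in the mitochondrion, rose by 2.59 ± 0.33 (SE, adjusted p = 9.94e-05) and 3.53 ± 0.19 (SE, adjusted p = 2.95e-06). Pfkfb3, which makes a potent activator of phosphofructokinase, went the other way, at 23.6, 42.9, 1.91, 5.1 and 20.9 TPM in blood and 66.2, 75.7, 81.5, 83.4 and 101 TPM in endothelial cultures. It was lower in every blood library, at a log2 fold change of -1.72 ± 0.59 (SE, adjusted p = 0.0256), but the call did not hold in the 2 RB lines taken alone (-0.79, adjusted p = 0.0868).

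Among the HIF genes, Epas1 (chromosome 17, 86753700 to 86833410, plus strand) was at 173, 103, 114, 128 and 154 TPM in endothelial cultures and 1.34, 12.5, 2.62, 0.861 and 12.5 TPM in day 2 blood. The blood libraries split within themselves, with RB4.6.9 and FL10 at 12.5 TPM each and the other 3 below 3 TPM, and all lay far below endothelium, with a log2 fold change of -4.09 ± 0.69 (SE, adjusted p = 0.00055). Hif1a, the other alpha subunit, was at 28.9, 44.9, 13.9, 20.7 and 42.8 TPM in blood and 136, 141, 107, 126 and 132 TPM in endothelial cultures, with no overlap and a log2 fold change of -1.62 ± 0.21 (SE, adjusted p = 0.0001). Their partner Arnt was at 32.7, 39.2, 31.3, 36.7 and 35.1 TPM in blood and 61.8, 55.3, 67.4, 67.2 and 65.5 TPM in endothelial cultures, with a log2 fold change of -0.35 ± 0.12 (SE, adjusted p = 0.0286). Vhl was at 13.4 to 24.3 TPM in blood and 43.5, 33.9, 29.8, 38 and 33.3 TPM in endothelial cultures, with a log2 fold change of -0.42 ± 0.15 (SE, adjusted p = 0.028). The groups did not overlap in TPM for either gene, but TPM are not scaled for composition as the fold changes are. The call for Arnt was lost without day 2 blood of FL10, RB3.6.5 or RB4.6.9 or endothelial FL4 or M5 (adjusted p = 0.0673, 0.0733, 0.1, 0.0526 and 0.0569). That for Vhl was lost without day 2 blood of FL4 or FL10 or endothelial RB3.6.5 or FL4 (adjusted p = 0.0597, 0.0646, 0.0662 and 0.0549). Egln3, an oxygen-sensing prolyl hydroxylase that is itself a HIF target (chromosome 12, 54178981 to 54203860, minus strand), rose by 3.82 ± 0.4 (SE, adjusted p = 3.99e-05).

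Of the other hypoxia-responsive genes, Bnip3, which marks mitochondria for removal (chromosome 7, 138890836 to 138909519, minus strand), was at 192, 179, 103, 184 and 146 TPM in day 2 blood. In endothelial cultures it was at 8.77, 5.71, 6.67, 7.69 and 5.91 TPM, below 10 TPM in each, and the difference was 5.07 ± 0.21 (SE, adjusted p = 1.36e-06). Ndrg1, a stress-responsive gene often used as a hypoxia marker (chromosome 15, 66929318 to 66969640, minus strand), was the member that fell, at 34.8, 35.4, 43.8, 15.9 and 35.4 TPM in blood and 481, 401, 432, 192 and 221 TPM in endothelial cultures. FL4 and FL10 were the lowest endothelial libraries and still lay above every blood library, and the difference was -2.82 ± 0.37 (SE, adjusted p = 0.000122). Hypoxia-responsive genes outside the 43 were mixed as well. Of 37 tested, 17 rose, among them Ak4, an adenylate kinase, at 37.5 ± 18.8 TPM in blood and 0.531 ± 0.186 TPM in endothelial cultures, and 12 fell, among them Stc1, a secreted glycoprotein, at 0.321 ± 0.484 and 269 ± 139 TPM. Of 15 other genes of glycolysis and pyruvate metabolism tested, 7 rose and 0 fell, with Slc16a1, another lactate transporter, at 2.66 ± 0.23 (SE, adjusted p = 1.4e-05).

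Cell cycle markers differed between the groups: 5 of them summed to 60.6 to 175 TPM in endothelial cultures and 210 to 1068 TPM in day 2 blood. Leukocyte markers summed to 3.41 to 124 TPM and 569 to 1337 TPM, and megakaryocyte markers to 58.9 to 1545 TPM and 591 to 20846 TPM, in the same order. The part of these sums in the results was not tested. With limma on log2(TPM + 1), which leaves in the shift of composition between libraries (median over all genes -0.46), 27 members were higher and 7 lower, where all genes split into 2335 higher and 5508 lower against 4103 and 3940 in edgeR. Members higher and lower were 31 and 7 without day 2 blood of M5, 29 and 5 without that of FL4, 28 and 4 within the RB lines and 27 and 4 within the M5 and FL lines. The share of all genes called in those smaller fits is not given.

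**Figure D2:**
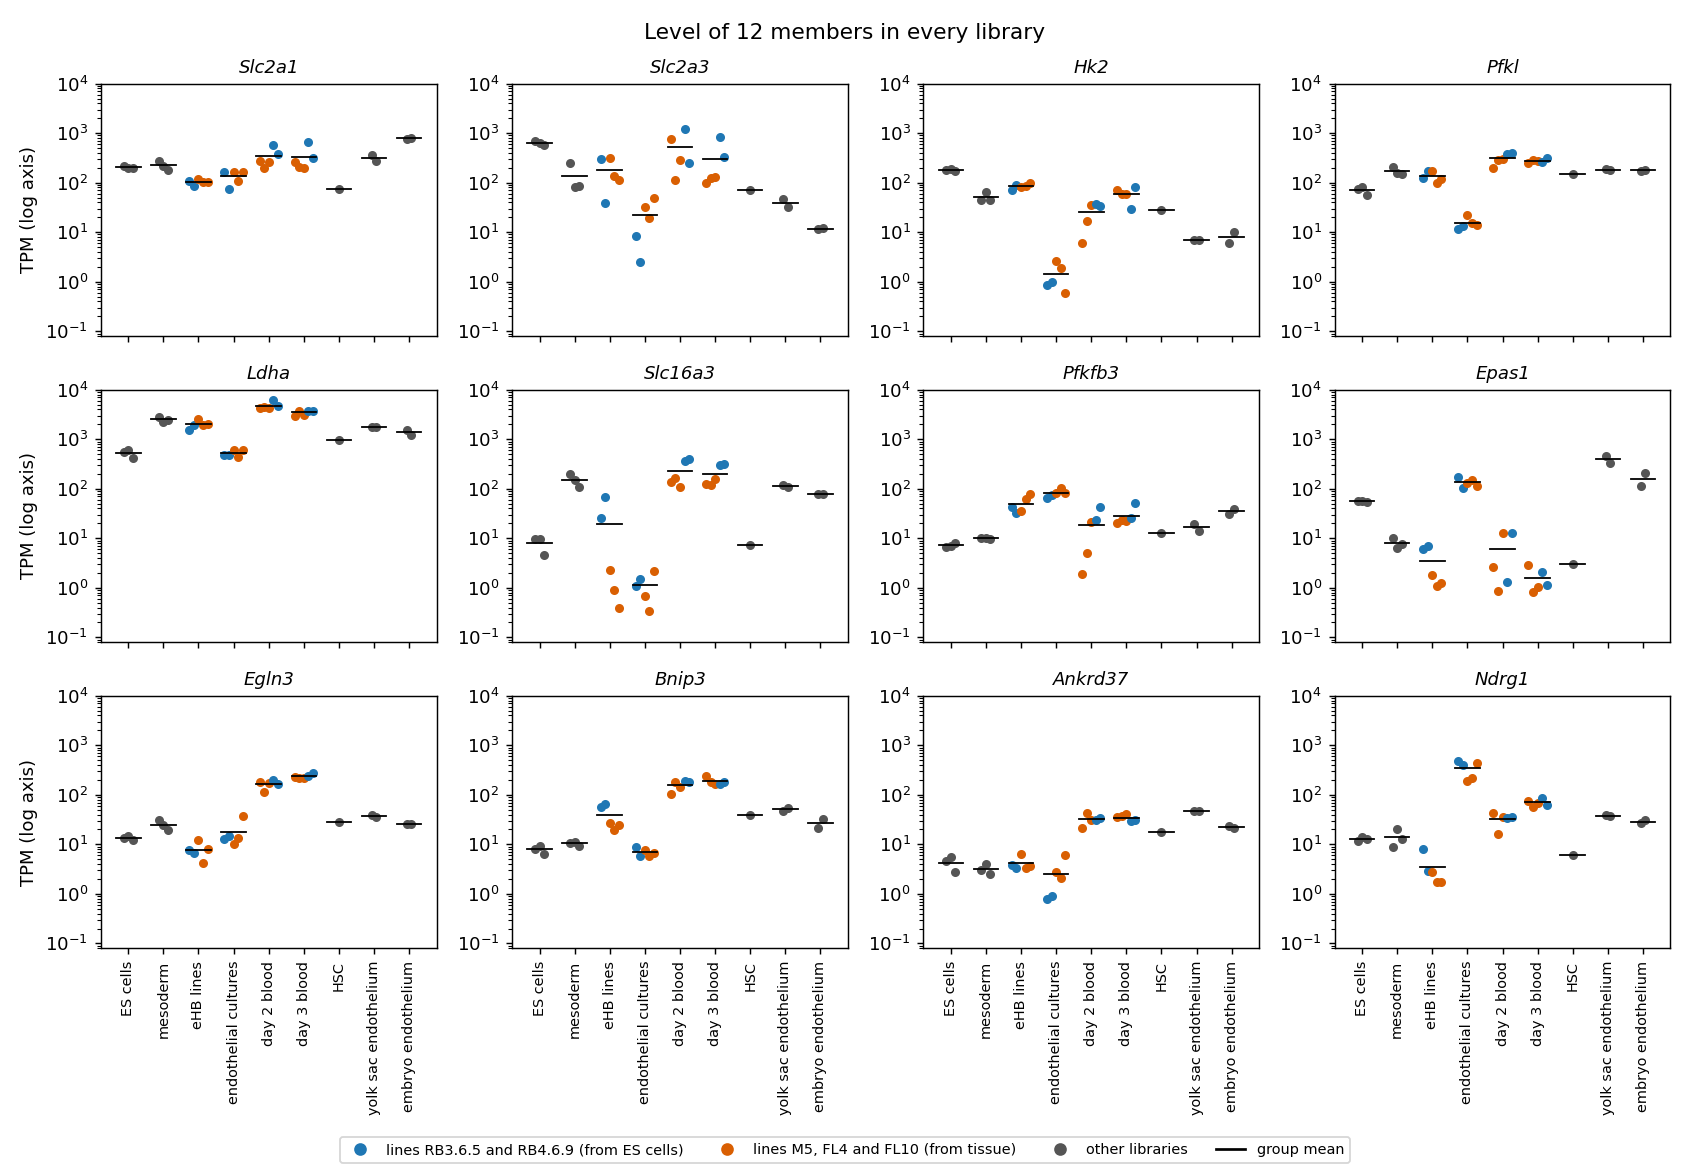
TPM on a log axis of 12 of the genes in every library, by group, with the RB lines in blue, M5, FL4 and FL10 in orange, other libraries in grey and the group mean as a line. Slc16a3 reads 110 to 390 TPM in day 2 blood and 0.343 to 2.19 TPM in endothelial cultures, whereas Epas1 reads 102.7 to 173 TPM in endothelial cultures and 0.861 to 12.5 TPM in day 2 blood.

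The day 3 blood cells, which carried CD45, also stood above endothelial cultures across glycolysis: 30 genes rose and 6 fell, against 31.1% and 30.2% of 12655 genes, with a median of 1.83 over the members and 0.02 over all genes. This comparison shares the endothelial libraries with the preceding one. By role, 12 of 13 glycolytic enzymes, 3 of 4 glucose entry genes, 6 of 7 lactate and flux genes, 2 of 6 HIF genes and 7 of 13 other hypoxia-responsive genes rose.

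In day 3 blood Slc16a3 was at 299.8, 310.0, 124, 119 and 156 TPM, again with the RB lines highest, and it stood above endothelium by 7.67 ± 0.61 (SE, adjusted p = 4.87e-06). Aldoc was at 92.1, 87.9, 78.6, 78.6 and 58.3 TPM (6.66 ± 0.42 SE, adjusted p = 1.35e-06) and Pfkl at 261, 322, 251, 289 and 279.5 TPM (4.59 ± 0.21 SE, adjusted p = 3.01e-07). Hk2 was at 28.8, 81.9, 71.2, 60.5 and 58 TPM, with RB3.6.5 the lowest, and the difference from endothelium was 5.77 ± 0.47 (SE, adjusted p = 5.11e-06). Bnip3 was at 168, 182, 239, 179 and 165 TPM, with M5 the highest, and differed by 5.16 ± 0.2 (SE, adjusted p = 1.08e-07). None of these 5 genes overlapped between blood and endothelial cultures. Car12, a membrane carbonic anhydrase, was low in both, at 1.63, 5.33, 6.6, 1.09 and 12.1 TPM in blood and 0.457, 0.054, 0.157, 0.021 and 0.27 TPM in endothelial cultures. It rose by 5.16 ± 0.9 (SE, adjusted p = 0.000672), and by 5.77 without endothelial RB3.6.5, its highest endothelial library (adjusted p = 0.000957). The Car12 call was lost in the RB lines alone (4.21, adjusted p = 0.0539).

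Lower in day 3 blood were 4 HIF genes, Pfkfb3 and Ndrg1. Epas1 was at 2.04, 1.13, 2.85, 0.831 and 1.04 TPM, below every endothelial library (-5.96 ± 0.46 SE, adjusted p = 4.01e-06), and Ndrg1 at 84.8, 63, 76, 58.1 and 69.7 TPM, below them as well (-1.86 ± 0.31 SE, adjusted p = 0.000527). Hif1a was at 20.6, 42.4, 65.8, 28.8 and 31.3 TPM (-1.39 ± 0.26 SE, adjusted p = 0.000925), with M5 the highest, and Pfkfb3 at 25.2, 52.1, 20.1, 23.1 and 22.1 TPM (-1.16 ± 0.24 SE, adjusted p = 0.00187). Vhl was at 14, 18.2, 21.6, 17.9 and 15.6 TPM (-0.64 ± 0.14 SE, adjusted p = 0.00303) and Arnt at 29.8, 37.9, 32, 34.6 and 27.8 TPM (-0.58 ± 0.12 SE, adjusted p = 0.00164). None of the 6 overlapped with the endothelial values given above. Without day 3 blood of RB3.6.5, 30 members were higher and 7 lower. Within the RB lines 3 genes were lower, and Pfkfb3, Arnt and Vhl were not called there (adjusted p = 0.205, 0.318 and 0.0958). The share of all genes called in these smaller fits is not given. With limma on log2(TPM + 1), 29 members were higher and 7 lower, while all genes split into 2478 and 5166 (median -0.36) against 3932 and 3826 in edgeR.

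Of the wider lists, 7 of 16 other glycolysis and pyruvate genes rose and 0 fell in day 3 blood against endothelium. Among them Hk3, the hexokinase of myeloid cells, was at 2.88, 2.24, 35.2, 12.4 and 4.32 TPM in blood and at most 0.084 TPM in endothelial cultures. Of 36 other hypoxia genes 15 rose and 10 fell, with the angiogenic factor Vegfa at 32.3 ± 7.87 TPM in blood and 1.84 ± 0.441 TPM in endothelial cultures.

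Between day 2 and day 3 of blood culture, edgeR found 0 members higher and 1 lower, against 7.31% and 2.87% of 12084 genes, and the medians were -0.03 over the members and -0.05 over all genes. The gene was Higd1a, a protein of the inner mitochondrial membrane (chromosome 9, 121848563 to 121858362, minus strand). It was at 123, 98.7, 64.8, 132 and 87.6 TPM on day 2 and 64.4, 57.1, 55.2, 64.6 and 56 TPM on day 3. The lowest day 2 library, M5, lay just above the highest day 3 library, FL4, and the log2 fold change was -0.86 ± 0.24 (SE, adjusted p = 0.0449). The call was lost without day 2 blood of FL4, RB3.6.5 or RB4.6.9 and without day 3 blood of M5, FL4, FL10 or RB4.6.9 (adjusted p = 0.0586 to 0.13).

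At an unadjusted p under 0.05, 5 members were higher on day 3 and 6 lower, against 14.4% and 12.7% of all genes. DESeq2 called 5 higher and 4 lower. With the line as a block, edgeR called 3 members higher, Aldoc (adjusted p = 0.0393), Ldhb (adjusted p = 0.0189) and Ndrg1 (adjusted p = 0.0286), and 1 lower. Aldoc averaged 41.8 ± 7.74 TPM on day 2 and 79.1 ± 13 TPM on day 3, and the values of Ndrg1 did not overlap, at 15.9 to 43.8 TPM on day 2 and 58.1 to 84.8 TPM on day 3. Ldhb, the lactate dehydrogenase subunit of oxidative tissue, was at 27.1, 45.5, 47.2, 34.4 and 72.1 TPM on day 2 and 51.7, 59.2, 154, 121 and 139 TPM on day 3, higher in each line. Without day 3 blood of RB3.6.5, the shallowest library, 3 members were higher and 6 lower. The share of all genes called in that fit and in the blocked fit is not given. Limma on log2(TPM + 1) called 2 and 2 members, with 714 genes higher and 154 lower over the table, and DESeq2 1502 and 1115, against 883 and 347 in edgeR.

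Outside the 43 genes, 1 of 15 glycolysis and pyruvate genes rose, Hk3, which was at 0, 0.051, 0.041, 0 and 0 TPM on day 2 and 2.24 to 35.2 TPM on day 3, with M5 the highest (adjusted p = 0.0024). Of 35 other hypoxia genes 2 rose, the transcription regulator Bhlhe40 by 1.45 ± 0.4 (SE, adjusted p = 0.0477) and the ubiquitin ligase component Wsb1 by 0.9 ± 0.24 (SE, adjusted p = 0.0421).

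Set against their parent eHB lines, day 2 blood cells had 28 of 43 genes higher and 3 lower, against 28.5% and 25.5% of 12269 genes. At 2-fold or more, 25 were higher and 3 lower, where all genes gave 18.9% and 15.5%. The median log2 fold change was 1.32 over the members and 0.01 over all genes. By role, 11 of 13 glycolytic enzymes, 3 of 4 glucose entry genes, 5 of 7 lactate and flux genes, 2 of 6 HIF genes and 7 of 13 other hypoxia-responsive genes rose. Cycle markers summed to 1060 to 1428 TPM in eHB lines and 210 to 1068 TPM in day 2 blood. Megakaryocyte markers summed to 1.41 to 81.6 TPM and 591 to 20846 TPM, with M5 the highest in blood, and leukocyte markers had medians of 5.32 and 871 TPM. The part of these sums in the results was not tested.

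The prolyl hydroxylase Egln3 rose most, from 7.79, 6.71, 12.5, 4.23 and 8.07 TPM in eHB lines to 202, 167, 183, 114 and 176 TPM in day 2 blood. The highest eHB library and the lowest blood library, both given here, lay far apart, and the log2 fold change was 5.1 ± 0.33 (SE, adjusted p = 1.13e-05). Slc16a3 was at 25.3, 68.4, 2.34, 0.896 and 0.392 TPM in eHB lines, where the RB lines, which differ from the others in both origin and medium, lay far above the other 3. Its rise to the day 2 values given above was 4.23 ± 1.2 (SE, adjusted p = 0.0137), and 5.62 without eHB RB4.6.9 (adjusted p = 0.00474). Ndrg1 was at 8.03, 2.88, 2.8, 1.73 and 1.73 TPM in eHB lines, below every blood library, with a rise of 3.98 ± 0.49 (SE, adjusted p = 0.000228). Ankrd37, a small ankyrin repeat gene induced in low oxygen, was at 3.79, 3.41, 6.53, 3.33 and 3.68 TPM in eHB lines and 31.6, 34.6, 21.5, 42.6 and 31.5 TPM in blood, a rise of 3.64 ± 0.3 (SE, adjusted p = 3.61e-05) with no overlap.

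Hexokinases changed in opposite directions. Hk1 was at 36.7, 38.5, 54.6, 34.4 and 30.5 TPM in eHB lines and 159, 122, 418, 197 and 164 TPM in day 2 blood, a rise of 3.23 ± 0.45 (SE, adjusted p = 0.000407). Hk2 was at 70.8, 89.1, 83.7, 85.2 and 98.8 TPM in eHB lines, above each of the day 2 values, and fell by 1.15 ± 0.34 (SE, adjusted p = 0.0154), a call that did not hold in the RB lines alone (-0.60, adjusted p = 0.0866). Pfkfb4, a relative of Pfkfb3, was at 9.49, 5.04, 16, 18.1 and 6.95 TPM in eHB lines and 37.3, 22.4, 83.9, 75.3 and 21.3 TPM in blood, a rise of 2.93 ± 0.61 (SE, adjusted p = 0.00294). Neither Hk1 nor Pfkfb4 overlapped between the groups. Ldhb was at 173, 169, 271, 287 and 360.3 TPM in eHB lines, above every blood library, and fell by 1.83 ± 0.3 (SE, adjusted p = 0.000903). Car12 was at 1.96, 22.2, 35.1, 6.5 and 41.9 TPM in eHB lines and 1.75, 1.06, 1.13, 0.192 and 6.78 TPM in blood, overlapping, with a log2 fold change of -2.78 ± 0.94 (SE, adjusted p = 0.0289). That call was lost within either origin and without day 2 blood of M5, RB3.6.5 or RB4.6.9 or eHB M5 or FL10 (adjusted p = 0.0562 to 0.0659), and the value was -3.71 without day 2 blood of FL10.

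The balance of calls moved with the scaling. Under library totals alone 25 members were higher and 5 lower, with all genes at 2335 higher and 4560 lower (median -0.37), and limma on log2(TPM + 1) gave 19 and 6, with all genes at 1774 and 5880 (median -0.59), against 3498 and 3134 in edgeR. EdgeR gave 28 and 3 without the globin genes, 27 and 2 without day 2 blood of M5 and 28 and 3 without that of FL4. For these edgeR fits the share of all genes called is not given. Of the other lists, 7 of 15 glycolysis and pyruvate genes rose and 3 fell, and 20 of 34 hypoxia genes rose and 1 fell, Wsb1, at -0.73 ± 0.21 (SE, adjusted p = 0.0148).

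Between eHB lines and endothelial cultures the calls went mostly down among glycolytic enzymes and up among HIF genes. Of the 43 genes 10 rose and 17 fell, against 34.3% and 35.6% of 12579 genes, with a median of -0.29 over the members and -0.04 over all genes. Of 13 glycolytic enzymes 8 fell, 1 rose and 4 were not called, of 7 lactate and flux genes 5 fell and 1 rose, and of 6 HIF genes 5 rose and 0 fell. Glucose entry had 1 gene higher and 2 lower, and the other hypoxia-responsive genes 2 and 2. This comparison shares its eHB libraries with the preceding one.

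Hk2 fell from the eHB level to 0.596 to 2.68 TPM, a log2 fold change of -5.92 ± 0.43 (SE, adjusted p = 1.24e-06), and Hk1 rose from 30.5 to 54.6 TPM to 98.7, 69.9, 223, 143 and 146 TPM (1.84 ± 0.3 SE, adjusted p = 0.000321). Neither overlapped between the groups. Pfkl was at 124, 171, 174, 98.6 and 118 TPM in eHB lines and fell by 3.13 ± 0.23 (SE, adjusted p = 1.27e-06), and Aldoc was at 25.3, 30.9, 4.71, 5.23 and 6.7 TPM, with the RB lines highest, and fell by 3.72 ± 0.67 (SE, adjusted p = 0.000588). Ldhb fell by 3.17 ± 0.4 (SE, adjusted p = 4.78e-05) to 17.8, 16.5, 22.1, 27.2 and 55.1 TPM, where FL10 was the highest library. Car12 fell by 6.82 ± 1.06 (SE, adjusted p = 0.000222), to under 1 TPM in each endothelial library. Its change was -7.42 without endothelial RB3.6.5, and it was not called in the RB lines alone (adjusted p = 0.0579).

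Slc16a3 fell by 3.76 ± 1.22 (SE, adjusted p = 0.0186), yet the groups overlapped, since M5, FL4 and FL10 were already low as eHB lines. The log2 fold change was -4.95 in the RB lines alone (adjusted p = 0.00792) and -0.19 in the other 3 lines (adjusted p = 0.849). The call was also lost in the fit blocked by line (-2.08, adjusted p = 0.129) and without eHB RB4.6.9 (-2.36, adjusted p = 0.062).

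In the HIF group Epas1 rose from 6.21, 6.97, 1.8, 1.07 and 1.26 TPM to the endothelial values given above, by 5.34 ± 0.59 (SE, adjusted p = 1.92e-05), with no overlap. Hif1a rose from 90.6, 86.2, 48.5, 50.9 and 60 TPM by 0.98 ± 0.17 (SE, adjusted p = 0.000384), and every endothelial library lay above every eHB library. Egln3 overlapped between the groups, because eHB M5 was at 12.5 TPM and endothelial FL4 at 10.1 TPM, and it rose by 1.19 ± 0.41 (SE, adjusted p = 0.0252). That call was lost without endothelial M5, its highest library (0.72, adjusted p = 0.0527), and without eHB RB3.6.5, RB4.6.9 or FL4 (adjusted p = 0.0522, 0.0536 and 0.0563). Ndrg1 had the largest rise of the 43 genes, 6.72 ± 0.55 (SE, adjusted p = 2.52e-06), and Bnip3l, a relative of Bnip3, rose from 84, 64.1, 80.1, 82.5 and 62.2 TPM to 171, 153, 112, 119.5 and 130.3 TPM, by 0.91 ± 0.14 (SE, adjusted p = 0.000235). Bnip3 itself was at 57.1, 66.4, 27.6, 19.7 and 25.2 TPM in eHB lines and fell by 2.44 ± 0.33 (SE, adjusted p = 8.25e-05).

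Other hypoxia genes split too, with 21 of 37 higher and 8 lower. The vasodilator gene Adm was at 161 ± 178 TPM and Stc1 at 269 ± 139 TPM in endothelial cultures, both near 0.1 TPM in eHB lines, while Vegfa fell from 50.1 ± 25.9 TPM to 1.84 ± 0.441 TPM. Of 16 other glycolysis and pyruvate genes 3 rose and 6 fell, with Slc16a1 at -3.85 ± 0.21 (SE, adjusted p = 2.98e-07) and the pyruvate dehydrogenase subunit Dlat at -1.63 ± 0.12 (SE, adjusted p = 1.37e-06). The cycle marker sum was 1060 to 1428 TPM in eHB lines and 60.6 to 175 TPM in endothelial cultures, and its part in these results was not tested. With library totals alone 6 members were higher and 21 lower (median over all genes -0.28). The share of all genes called in that fit is not given, so these counts describe the members alone.

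Whether the response differed between ES-derived and tissue-derived lines was tested with an interaction term in edgeR. The fit had no term for the line, so the pairing of same-line libraries was not used. Because M5, FL4 and FL10 also had a different eHB medium from the RB lines, the contrasts with eHB lines hold a different change of medium in each origin, and the 2 cannot be told apart. For endothelial cultures against eHB lines 0 of 43 members and 0% of 13761 genes were called, with 8 members and 15.8% of all genes at an unadjusted p under 0.05. For day 2 blood against eHB lines 0 of 43 members and 0% of 13507 genes were called, with 8 members and 9.62% of all genes at the unadjusted threshold. For day 3 against day 2 blood 0 of 43 members and 0% of 13136 genes were called, with 1 member and 5.09% of all genes there. No other tool was run on these differences. The member with the largest difference was Slc16a3 in endothelial cultures against eHB lines, at -5.00 in ES-derived and -0.19 in tissue-derived lines, 4.81 ± 1.2 apart (SE, adjusted p = 0.127).

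**Figure D3:**
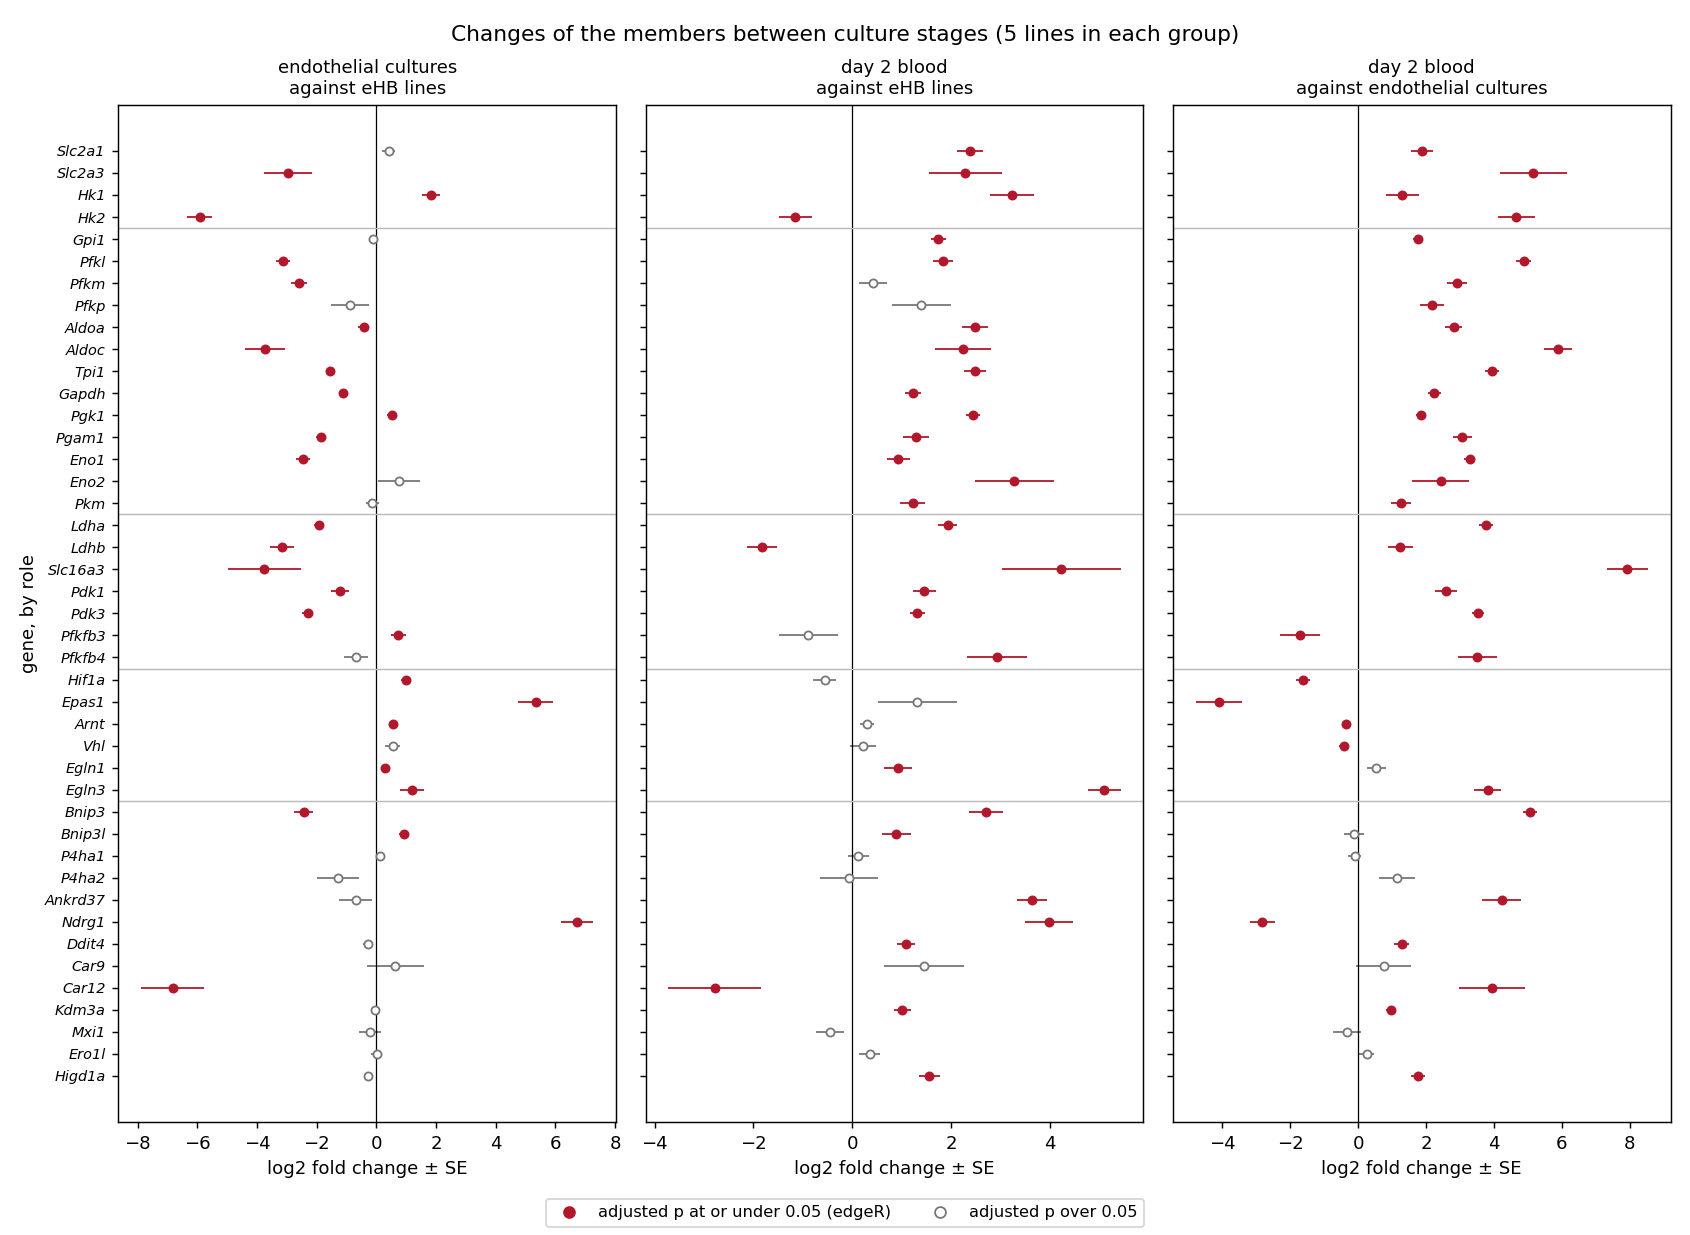
Log2 fold change with its SE for each of the 43 genes in endothelial cultures against eHB lines, day 2 blood against eHB lines and day 2 blood against endothelial cultures, with genes at an adjusted p of 0.05 or less in filled red. Of the 13 glycolytic enzymes, 8 are called lower in the first, 11 higher in the second and 13 higher in the third.

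Several steps have more than one gene, and the shares of the copies moved between groups. Hk2 made up 68.8% ± 5.96 of the summed Hk1 and Hk2 level in eHB lines (SD, n = 5), 1.13% ± 0.595 in endothelial cultures, 13.6% ± 8.61 in day 2 blood and 32.7% ± 13.3 in day 3 blood. In ES cells its share was 61.4% ± 0.641 (n = 3), in mesoderm 80.3% ± 2.91 (n = 3), in yolk sac endothelium 7.06% ± 1.41 (n = 2), in embryo endothelium 8.99% ± 0.989 (n = 2) and in HSCs 19.9%. Hk2 was the more abundant copy in ES cells, mesoderm and eHB lines and Hk1 in the other 6 groups, and the shares of endothelial cultures and eHB lines did not overlap.

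Among the phosphofructokinase genes, Pfkl made up 53.9% ± 6.63 of the sum in eHB lines, 37.6% ± 5.45 in endothelial cultures, 73.2% ± 5.78 in day 2 blood and 77.1% ± 5.76 in day 3 blood (SD, as for the shares that follow), on sums of 253 TPM in eHB lines and 40.7 TPM in endothelial cultures. In ES cells Pfkp, the platelet type, led with 52.5% ± 4.49, and Pfkl had 25.8% ± 0.851. Ldhb made up 53.5% ± 4.56 of lactate dehydrogenase RNA in ES cells, 5.04% ± 0.282 in mesoderm, 11.1% ± 2.88 in eHB lines, 5.17% ± 3.36 in endothelial cultures, 0.982% ± 0.458 in day 2 blood and 3.04% ± 1.58 in day 3 blood. In ES cells the Ldha and Ldhb levels were close to equal, and in the other groups Ldha was far the higher. Of the glucose transporter pair Slc2a3 held 75.4% ± 0.932 in ES cells, 57.3% ± 17.1 in eHB lines, 12.6% ± 8.39 in endothelial cultures and 53.8% ± 16.6 in day 2 blood. Of the summed Hif1a and Epas1 level, Epas1 held 50.7% ± 5.26 in endothelial cultures, 86.9% ± 1.43 in yolk sac and 71.8% ± 6.22 in embryo endothelium, and 4.32% ± 2.5 in eHB lines.

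**Figure D4:**
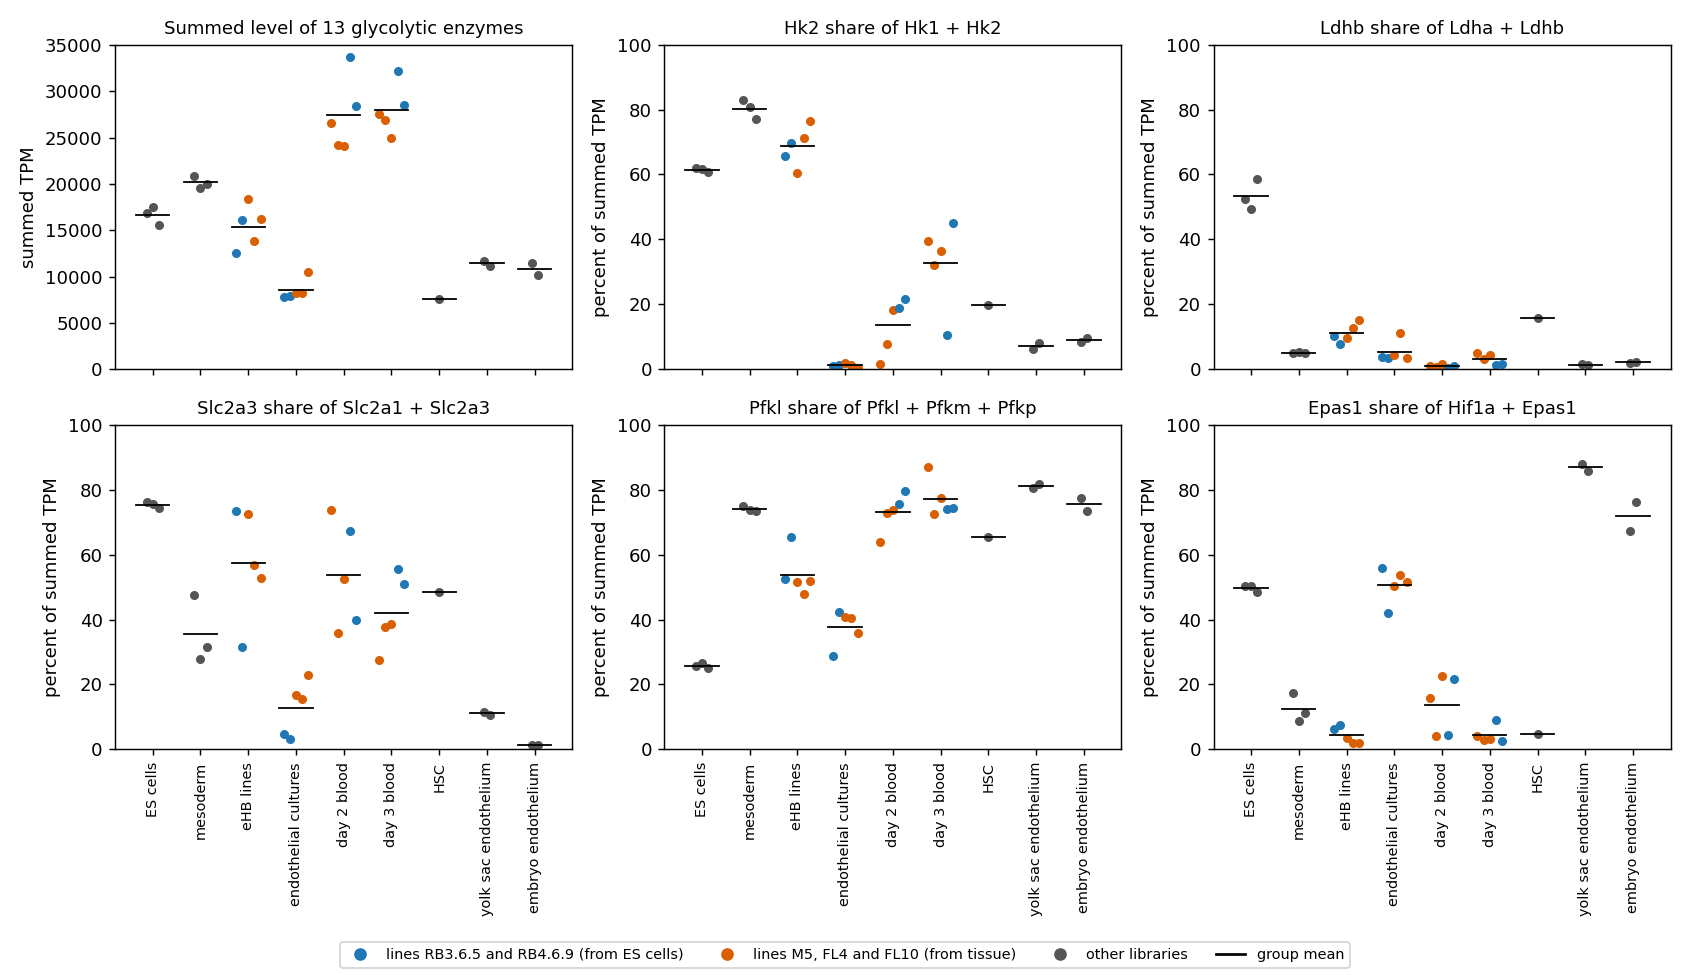
Summed TPM of the 13 glycolytic enzymes and the percent share of 5 genes in their families, one point per library by group. The summed enzymes average 8548 TPM in endothelial cultures, 15402 TPM in eHB lines and 27420 TPM in day 2 blood, and the share of Hk2 averages 1.13%, 68.8% and 13.6% in the same groups.

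When ES cells became Kdr-positive mesoderm, 21 of the 43 genes rose and 12 fell, against 39.1% and 40.0% of 13539 genes, with a median of 0.32 over the members and -0.00 over all genes. Of 13 glycolytic enzymes 8 rose and 1 fell, of 4 glucose entry genes 1 rose and 3 fell, and of 7 lactate and flux genes 4 rose and 1 fell. HIF genes split 3 and 3, and the other hypoxia-responsive genes 5 and 4. Values follow the order RB2, RB3 and RB4, and the ES-state markers summed to 2762 to 2835 TPM in ES cells and 82.1 to 147 TPM in mesoderm.

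The lactate exporter Slc16a3 had the largest change of the 43 genes. It rose from 9.55, 9.75 and 4.68 TPM to 200.2, 147 and 107 TPM (4.48 ± 0.33 SE, adjusted p = 7.9e-06), and Ldha rose from 546, 604 and 411 TPM to 2819, 2267 and 2497 TPM (2.62 ± 0.18 SE, adjusted p = 1.95e-06). Every mesoderm library lay far above every ES library for both genes. Among the enzymes Pfkl rose from 75.9, 80.6 and 55.6 to 207, 157 and 152 TPM (1.62 ± 0.19 SE, adjusted p = 6.36e-05) and Tpi1 from 329, 366 and 280.4 to 859, 539.9 and 644 TPM (1.41 ± 0.21 SE, adjusted p = 0.000308). Pfkp went the other way, from 164, 166 and 105 to 17.2, 19.3 and 16.6 TPM (-2.71 ± 0.17 SE, adjusted p = 1.19e-06), so that Pfkl was the most abundant phosphofructokinase gene in mesoderm and Pfkp in ES cells.

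Hk1 fell from 113, 119 and 113 TPM in ES cells to 9.13, 14.9 and 13.5 TPM in mesoderm (-2.85 ± 0.14 SE, adjusted p = 1.86e-07). Slc2a3 fell from 709.5, 619 and 583 to 250.1, 82.7 and 84.4 TPM (-1.83 ± 0.45 SE, adjusted p = 0.00622), with RB2 the highest in mesoderm and a change of -2.63 without it (adjusted p = 5.86e-09). Epas1 fell from 57, 57.8 and 53.1 to 9.94, 6.48 and 7.57 TPM (-2.47 ± 0.18 SE, adjusted p = 3.19e-06), while the oxygen sensor Egln1 rose from 6.56, 6.96 and 6.96 to 18.6, 19.2 and 16.9 TPM (1.75 ± 0.11 SE, adjusted p = 9.37e-07). None of these 4 genes overlapped between the stages.

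P4ha2, a collagen prolyl hydroxylase subunit, rose from 2.58, 2.87 and 2.79 to 24.6, 14.7 and 13.6 TPM (3.02 ± 0.28 SE, adjusted p = 1.12e-05). Kdm3a, an oxygen-dependent histone demethylase, fell from 150.1, 149 and 172 to 12, 15.9 and 14.9 TPM (-3.13 ± 0.1 SE, adjusted p = 2.37e-08), and Mxi1, an antagonist of Myc, from 13.4, 13.8 and 12.5 to 2.33, 1.78 and 1.73 TPM (-2.43 ± 0.17 SE, adjusted p = 1.68e-06). These 3 genes did not overlap between the stages either. Of other hypoxia genes 17 of 38 rose and 9 fell, and of other glycolysis and pyruvate genes 5 of 17 rose and 7 fell. Limma on log2(TPM + 1) gave 16 members higher and 16 lower, with all genes at 3760 and 6369 (median -0.31) against 5295 and 5421 in edgeR, and Aldoa, called higher in edgeR at 0.32 ± 0.1 (SE, adjusted p = 0.0153), was at -0.01 there.

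The eHB lines differed from mesoderm in as many genes upward as downward, 11 and 11 of 43, against 23.5% and 23.1% of 13282 genes, with medians of 0.01 and 0.05. The roles differed. Of 13 glycolytic enzymes 7 were lower and 1 higher, whereas of 13 other hypoxia-responsive genes 6 were higher and 1 lower. Glucose entry had 2 genes higher and 1 lower, lactate and flux genes 2 and 1, and HIF genes 0 and 1.

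Among lactate and flux genes, Pdk1 was at 3.65 to 7.42 TPM in mesoderm and 31.8, 46.5, 36.6, 30.8 and 22 TPM in eHB lines (2.35 ± 0.34 SE, adjusted p = 0.000991), and Pfkfb3 at 9.55 to 10.2 TPM and the eHB range of 33.1 to 77.4 TPM (2.03 ± 0.31 SE, adjusted p = 0.00137). Mxi1 was at 1.73 to 2.33 TPM in mesoderm and 41.9, 46.1, 21.4, 27.7 and 27 TPM in eHB lines (3.76 ± 0.31 SE, adjusted p = 8.53e-05). No eHB library reached down to mesoderm in any of these 3 genes. Car12, at 0.692, 1.11 and 0.704 TPM in mesoderm, was higher in every eHB library (4.4 ± 1.04 SE, adjusted p = 0.00939), and Ero1l, the oxidase that forms disulfide bonds in the endoplasmic reticulum, stood at 16.2, 18.9 and 15.9 TPM in mesoderm and 73.3, 77.8, 96.3, 59.9 and 51 TPM in eHB lines (1.76 ± 0.21 SE, adjusted p = 0.000407). Bnip3 was at 10.6, 11.2 and 9.48 TPM in mesoderm, below every eHB library (1.57 ± 0.41 SE, adjusted p = 0.0148), and its call was lost without mesoderm RB3 (1.56, adjusted p = 0.0541) or RB4 (1.53, adjusted p = 0.0591).

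On the falling side, Slc2a1 was at 277, 213 and 184 TPM in mesoderm and 107, 86.1, 118, 102 and 103 TPM in eHB lines (-1.45 ± 0.17 SE, adjusted p = 0.000368). Egln3 was at 31.2, 24.3 and 19.8 TPM in mesoderm, above all 5 eHB libraries (-2.0 ± 0.33 SE, adjusted p = 0.00181), and Ndrg1 at 8.9, 20.5 and 13.1 TPM (-2.37 ± 0.51 SE, adjusted p = 0.00626). The eHB lines lay below mesoderm for all 3 genes. Of the enzymes, Aldoa averaged 1917 ± 79.2 TPM in mesoderm and 1243 ± 296 TPM in eHB lines (-0.95 ± 0.18 SE, adjusted p = 0.00394), and Gapdh 7976 ± 383 and 5659 ± 759.9 TPM (-0.82 ± 0.14 SE, adjusted p = 0.00238). Pgam1, which moves the phosphate of phosphoglycerate, averaged 1114 ± 47.1 and 866 ± 191 TPM with overlap (-0.69 ± 0.16 SE, adjusted p = 0.00936).

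Of the wider lists, 3 of 17 glycolysis and pyruvate genes were higher and 5 lower, and 4 of 36 hypoxia genes higher and 14 lower, with Anxa2, a membrane-binding annexin, at -4.97 ± 0.82 (SE, adjusted p = 0.00189). Scaling by library totals alone gave 16 members higher and 10 lower, with all genes at 4046 and 2374 (median 0.23), and limma on log2(TPM + 1) gave 17 and 7, with all genes at 4614 and 1989 (median 0.31), against 3117 and 3069 in edgeR. Without mesoderm RB2, 7 members were lower, and the share of all genes called in that fit is not given.

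Endothelial cultures were set against endothelium sorted from embryos (n = 2), which shares no culture history with them. Of the 43 genes 8 were higher in culture and 14 lower, against 22.0% and 23.4% of 13725 genes, with a median of -0.22 over the members and 0.02 over all genes. Of 13 glycolytic enzymes 0 were higher and 6 lower, of 4 glucose entry genes 0 and 2, of 7 lactate and flux genes 2 and 3, of 6 HIF genes 2 and 1 and of 13 other hypoxia-responsive genes 4 and 2.

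Slc2a1, known as the main glucose transporter of brain endothelium, was at 759 and 815 TPM in embryo endothelium and 164, 75.9, 163, 164 and 107 TPM in culture (-2.56 ± 0.28 SE, adjusted p = 0.000745). Slc16a3 was at 79.6 and 78.3 TPM in the embryo, against at most 2.19 TPM in culture (-5.87 ± 0.5 SE, adjusted p = 0.000372). Pfkl was at 173 and 184 TPM in the embryo (-3.56 ± 0.22 SE, adjusted p = 0.000195) and Pfkp at 29.7 and 42.3 TPM, against 7.7, 6.58, 4.67, 15.8 and 11.2 TPM in culture (-1.97 ± 0.4 SE, adjusted p = 0.00639). Each of these 4 genes was lower in every culture than in both embryo libraries.

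Hk2 was at 6.08 and 9.94 TPM in the embryo (-2.51 ± 0.53 SE, adjusted p = 0.00793), and its call was lost without embryo replicate 2 (-2.24, adjusted p = 0.0608). Ankrd37 was at 23.3 and 21.2 TPM in the embryo and 0.795, 0.915, 6.09, 2.75 and 2.1 TPM in culture (-3.16 ± 0.74 SE, adjusted p = 0.0115). That call was lost without embryo replicate 1 (-2.96, adjusted p = 0.0718), and the value was -3.81 without the M5 culture (adjusted p = 0.00215).

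Ndrg1 was higher in culture, with 27.1 and 30.7 TPM in the embryo (3.58 ± 0.48 SE, adjusted p = 0.00139), as were Hif1a, at 54 and 63.9 TPM there (1.12 ± 0.14 SE, adjusted p = 0.00121), and Pfkfb3, at 31.2 and 38.4 TPM (1.3 ± 0.16 SE, adjusted p = 0.00111). Ero1l, at 21.7 and 29.6 TPM in the embryo and 76.9, 63, 92.3, 63 and 56.9 TPM in culture (1.46 ± 0.23 SE, adjusted p = 0.00236), and the collagen prolyl hydroxylase P4ha1, at 49 and 54.2 TPM in the embryo and 103, 89.1, 71.1, 103 and 84.8 TPM in culture (0.79 ± 0.16 SE, adjusted p = 0.00628), were higher too. These 5 genes did not overlap between the groups. Pfkfb4, at 2.68 and 3.25 TPM in the embryo and 6.26, 4.61, 11.1, 7.57 and 4.73 TPM in culture, was higher by 1.2 ± 0.41 (SE, adjusted p = 0.046), a call lost without endothelial RB3.6.5 or FL4 or either embryo library (adjusted p = 0.0625, 0.0776, 0.184 and 0.16).

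Of 39 other hypoxia genes 11 were higher in culture and 12 lower, and of 19 other glycolysis and pyruvate genes 4 and 4. The counts of higher members fell to 5 without embryo replicate 1. Library totals alone gave 6 members higher and 15 lower, with all genes at 2250 and 4001 (median -0.16) against 3025 and 3210. The share of all genes called without that embryo library is not given. The erythroid marker sum of the 2 embryo libraries was 2721 and 34079 TPM, against 18.6 to 2530 TPM in culture. Other sums differed as well, with cycle markers at 675 to 712 TPM in the embryo and 60.6 to 175 TPM in culture, macrophage markers at 166 to 247 and 4.36 to 12.7 TPM, and leukocyte markers at 143 to 225 and 3.41 to 124 TPM. The part of these 4 sums in the results was not tested.

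Between the 2 uncultured endothelia, 7 of 42 tested members were higher in yolk sac and 3 lower, against 15.9% and 8.54% of 13673 genes, with medians of 0.06 and -0.03. By role 5 of 13 other hypoxia-responsive genes were higher, 1 of 6 HIF genes was higher, glucose entry had 1 gene each way, and 1 of 12 glycolytic enzymes and 1 of 7 lactate and flux genes were lower.

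The 2 main glucose transporters went in opposite directions. Slc2a3 was at 47.1 and 32.4 TPM in yolk sac and 11.4 and 11.9 TPM in embryo endothelium (1.71 ± 0.21 SE, adjusted p = 0.000246), and Slc2a1 at 361 and 274 TPM in yolk sac (-1.36 ± 0.23 SE, adjusted p = 0.00189), although without yolk sac replicate 2 the Slc2a1 call was lost (-1.21, adjusted p = 0.071). Pfkp was at 18.5 and 16.8 TPM in yolk sac (-1.06 ± 0.19 SE, adjusted p = 0.0021) and Pfkfb3 at 19.3 and 14.2 TPM (-1.04 ± 0.18 SE, adjusted p = 0.0019), each below both embryo libraries. Epas1 was at 449.8 and 332 TPM in yolk sac and 111 and 204 TPM in the embryo (1.29 ± 0.27 SE, adjusted p = 0.00655), and the yolk sac libraries held the highest levels of this gene in the study.

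P4ha2 was at 46.5 and 46.3 TPM in yolk sac and 6.37 and 7.23 TPM in the embryo (2.73 ± 0.2 SE, adjusted p = 7.98e-06), and P4ha1 at 115 and 101 TPM in yolk sac and 49 and 54.2 TPM in the embryo (1.01 ± 0.18 SE, adjusted p = 0.00201). Both encode subunits that modify collagen, and 5 fibroblast markers summed to 1068 to 1132 TPM in yolk sac against 27.7 to 44.1 TPM in the embryo libraries, whose part in these results was not tested. Ankrd37 was at 47.4 and 47 TPM in yolk sac (1.03 ± 0.23 SE, adjusted p = 0.00916) and Bnip3 at 48.2 and 53.3 against 21.4 and 32.5 TPM (0.89 ± 0.2 SE, adjusted p = 0.00955), and the call for Bnip3 was lost without yolk sac replicate 2 (0.78, adjusted p = 0.0763). Of 39 other hypoxia genes 14 were higher and 4 lower, and of 20 other glycolysis and pyruvate genes 6 were higher and 1 lower.

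The single HSC library has no replicate, so its values were set against the range of the 5 day 3 blood libraries without a test. Of the 43 genes 27 lay below that range, 9 above and 7 within, where 13.7% of 11102 genes at 5 TPM or more lay below and 58.2% above. The 11102 genes reached 5 TPM in at least 1 of these libraries, a minimum not applied to the 43. Of 13 glycolytic enzymes 10 were below, 2 above and 1 within. Those above were Pfkm, by a narrow margin (59.3 TPM against at most 59.2 TPM), and Eno2, near the detection limit (4.33 TPM against at most 2.75 TPM). Eno1 was at 661 TPM in HSCs and 2521 to 3574 TPM in day 3 blood, Gapdh at 2769 and 8035 to 10918 TPM, and Slc16a3 at 7.42 and 119 to 310.0 TPM. All 3 were far below the lowest blood library in HSCs.

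Of the HIF group 3 genes were above the range, 1 below and 2 within. Epas1, one of those above, was low in both, at 3.02 TPM in HSCs against at most 2.85 TPM in day 3 blood. Egln3 was the gene below, at 28.4 TPM against 214 to 277 TPM, and Arnt was above, at 49.5 TPM. Ndrg1 was at 5.97 TPM against 58.1 to 84.8 TPM and Bnip3 at 39.9 against 165 to 239 TPM, among 9 of 13 other hypoxia-responsive genes below. Car9, a membrane carbonic anhydrase and a classical HIF target, was at 15.1 TPM in HSCs and 3.47 TPM or less in day 3 blood. Ldhb, at 185 TPM, and Bnip3l, at 124 TPM, were also above the blood range. The HSCs were not cultured, and the blood cells were kept at 1.5% oxygen, so culture, oxygen and cell type cannot be told apart.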

How the data were processed

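Libraries of total RNA from 31 samples were sequenced. The submitters' processing notes name Bowtie 0.12.9, RSEM 1.2.3 and CASAVA 1.8.2, and the mouse build mm10. The authors deposited expected counts per gene (RSEM's estimates) and TPM, renormalised in a way not given in the sources used here; strand is not stated. The TPM header holds 1 extra name, and columns were assigned without it, which placed 31 of 31 closest to their own counts. No column was left out.

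Expected counts were rounded and tested with edgeR 4.0.16 in R 4.3.3 (robust quasi-likelihood fit, TMM, filterByExpr), with only the compared groups in a fit. The SE is the log2 fold change without shrinkage over the square root of F. Alternatives were DESeq2 1.42.0, limma 3.58.1 on log2(TPM + 1) and log2(TPM + 0.1), other scalings, no filter, leaving out libraries or globin genes, subsets of lines and the line as a block. Same-line libraries were paired by the labels, and their deviations correlated at 0.30 to 0.45 (endothelial and eHB), 0.16 to 0.30 (day 2 blood and eHB), 0.21 to 0.53 and 0.05 to 0.32 (day 2 and day 3 blood with endothelial), 0.08 to 0.68 (day 3 and day 2 blood) and -0.09 to 0.08 (mesoderm and ES). The scripts were tested on simulated data.

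Per-library values are given for up to 6 called members in each direction with a mean of at least 5 TPM in the higher group, and for others in the roles' course. The 43 members, the lists and the tests were chosen with earlier results of these data known. Positions come from GENCODE M21 and promoters from RefSeq.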

Additional observations from a re-analysis of the deposited data

Results flagged for a closer look

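In groups of 5 libraries, 153 pairs of a gene and a group were examined for 1 library far from the other 4, and 15 had one. Chance marks about 1 in 20 such groups, so several of these may be chance.

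In endothelial cultures, the M5 library was high for Egln3 (37.0 TPM, the others 10.1 to 14.7 TPM) and Pkm (3814 TPM, the others 2044 to 2373 TPM). Its erythroid, leukocyte and megakaryocyte marker sums of 2530, 124 and 1545 TPM were also the highest of that group. RB4.6.9 was high for Pgk1 (1196 TPM, the others 898 to 983 TPM), FL10 for Ldhb (55.1 TPM, the others 16.5 to 27.2 TPM) and RB3.6.5 for Mxi1 (59.5 TPM, the others 11.7 to 24.8 TPM).

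In day 2 blood, M5 was high for Hk1 (418 TPM, the others 122 to 197 TPM). RB3.6.5 was high for Ldha (6241 TPM, the others 4233 to 4775 TPM) and low for Kdm3a (41.4 TPM, the others 47.9 to 49.4 TPM).

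In day 3 blood, RB3.6.5, the shallowest library and the one richest in Lars2, was high for Slc2a1 (650 TPM, the others 202 to 317 TPM), Hk1 (249 TPM, the others 101 to 127 TPM) and Aldoa (5395 TPM, the others 3483 to 3900 TPM), and low for Egln1 (18.9 TPM, the others 43.3 to 47.0 TPM). M5 was high for Bnip3 (239 TPM, the others 165 to 182 TPM) and Ero1l (284 TPM, the others 90 to 127 TPM), and RB4.6.9 for Pfkfb3 (52.1 TPM, the others 20.1 to 25.2 TPM).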

How the results depend on the processing

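Members called in edgeR kept their direction and call in each setting run for 28 of 33 genes in mesoderm against ES cells, 14 of 22 in eHB against mesoderm, 19 of 27 in endothelial cultures against eHB, 20 of 31 in day 2 blood against eHB, 0 of 1 in day 3 against day 2 blood, 28 of 36 and 26 of 36 in day 2 and day 3 blood against endothelial cultures, 16 of 22 against embryo endothelium and 7 of 10 in yolk sac. One gene changed sign, Aldoa in mesoderm (-0.01 with limma at either pseudocount, adjusted p = 0.902 and 0.903).

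Apart from the block and leave-out fits, whose counts follow further on, counts of members moved by more than 1.5 times in these cases. In eHB against mesoderm, limma gave 17 higher and 7 lower at either pseudocount. In endothelial cultures against eHB, library totals alone gave 6 higher. In day 2 blood against eHB, totals gave 5 lower and limma 6 lower at either pseudocount. In day 3 against day 2 blood, DESeq2 gave 5 higher and 4 lower, totals 2 and 4, limma 2 and 2 with a pseudocount of 1 and 2 and 3 with 0.1, and either origin alone 0 lower. In day 3 blood against endothelial cultures, the RB lines alone gave 3 lower.

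With the line as a replicate block, members higher and lower were 11 and 18 (endothelial cultures against eHB), 30 and 4 (day 2 blood against eHB), 3 and 1 (day 3 against day 2 blood), and 31 and 6, and 31 and 7 (day 2 and day 3 blood against endothelial cultures). The block ended the call for Slc16a3 in endothelial cultures against eHB (-2.08, adjusted p = 0.129). For yolk sac against embryo the replicate numbers correlated at -0.27, and the block gave 6 and 3, the crossed pairing, chosen after seeing the data, 10 and 4.

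Leaving out 1 library gave, higher and lower, 19 to 22 and 12 to 15 in mesoderm, 8 to 12 and 7 to 13 in eHB against mesoderm, 8 to 11 and 15 to 18 in endothelial cultures against eHB, 27 to 28 and 2 to 3 in day 2 blood against eHB, and 0 to 3 and 0 to 6 in day 3 against day 2 blood. It gave 28 to 31 and 4 to 7, and 30 to 31 and 6 to 7, in day 2 and day 3 blood against endothelial cultures, 5 to 10 and 12 to 16 against embryo endothelium, and 5 to 9 and 3 to 5 in yolk sac. For the subset, block and leave-out fits the share of all genes called is not given, so their counts describe the members alone. The same holds for any other setting whose calls over all genes are not printed. Depth limits low genes such as Car12, Car9 and Eno2, and day 3 blood of RB3.6.5 most.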
